A study of Homo sapiens with 5 samples.

Results

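Retained-intron transcripts are gene models that keep as exon a stretch that other models of the same gene splice out. Members were the transcripts of GENCODE v44 type retained_intron with at least 10 reads in at least 2 of the 5 libraries. There were 3142, in 2227 parent genes, out of 31758 human transcripts that reached that depth and 227751 listed. A further 25832 listed retained_intron transcripts did not reach it, and only 13846 of the 28974 listed had any read. The comparison set was the 5632 protein_coding transcripts of the same genes that reached the same depth.

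The libraries were long-read nanopore cDNA from mixtures of NCI-H1975 and HCC827 RNA, both established lung adenocarcinoma cell lines. NCI-H1975 RNA carried sequins (synthetic spike-in RNAs) mix A and HCC827 RNA carried mix B. Ratios give the mass of NCI-H1975 RNA first: NCI-H1975 alone (100:0), HCC827 alone (0:100) and, between them, 75:25, equal mass (50:50) and 25:75, with 1 library each. Poly(A) RNA was amplified by PCR as cDNA with size selection, from 1 RNA preparation per line grown to near confluence, so tests along the series measure scatter between these libraries and not between cultures. The table totals ran from 2932250 to 4058751 reads. At gene level, EGFR read 94.7, 360, 538, 782 and 980 CPM (reads scaled to library size by TMM) in that order. KRT19 rose from 1351 to 4246, and VIM, the mesenchymal filament gene, fell from 1151 to 49.3. These genes ran in the order of the labels. The other genes chosen for this check, NKX2-1 (42.1, 62.0, 87.0, 124 and 112) and CDH1 (95.3, 124, 136, 157 and 148), rose up to 25:75 and were lower at 0:100. The share of mitochondrial reads also ran in order, from 5.65% to 8.85%, and the read-weighted mean transcript length went from 2581 to 2180 bases. The share of members among all human reads is given below with and without mitochondrial transcripts, and otherwise the part of these values in the results was not tested.

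A spliceosome normally removes introns in the nucleus before the mRNA is exported. An intron that stays in a polyadenylated RNA often brings a stop codon, and such RNA may be held in the nucleus, degraded by nonsense-mediated decay or, for detained introns, spliced later. Genes for splicing factors themselves are well known for this form of regulation, and introns that are short and rich in G and C are those most often kept.

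Sequences of 7 introns are shown as examples of what members hold. They are introns of the canonical coding transcript, between coding exons, that were kept whole in a member described below. Capitals mark the first 6 bases (the 5′ splice site side) and the last 3 bases (the 3′ splice site), and each is written 5′ to 3′ on the strand of its gene, from the GRCh38 genome. The HNRNPL and OAZ1 introns belong to members that lost share from NCI-H1975 to HCC827, and the other introns to members whose shares ran in order along the series or that fell in level.
HNRNPL-206, intron 7 of 12, chr19:38840377-38840487, minus strand: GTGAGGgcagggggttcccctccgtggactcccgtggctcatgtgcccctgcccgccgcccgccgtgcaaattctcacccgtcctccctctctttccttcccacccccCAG
OAZ1-201, intron 3 of 5, chr19:2271531-2271781, plus strand: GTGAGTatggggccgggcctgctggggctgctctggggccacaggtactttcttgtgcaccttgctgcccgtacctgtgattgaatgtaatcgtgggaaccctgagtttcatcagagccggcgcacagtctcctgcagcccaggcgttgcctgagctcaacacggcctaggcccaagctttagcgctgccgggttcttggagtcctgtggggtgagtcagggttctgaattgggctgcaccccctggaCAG
TRMT2A-211, intron 10 of 11, chr22:20113008-20113117, minus strand: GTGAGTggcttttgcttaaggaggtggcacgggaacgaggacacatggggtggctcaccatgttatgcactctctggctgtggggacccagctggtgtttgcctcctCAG
PHYKPL-206, intron 5 of 12, chr5:178224565-178224641, minus strand: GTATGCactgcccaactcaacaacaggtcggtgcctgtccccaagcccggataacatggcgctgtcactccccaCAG
RPAP1-208, intron 23 of 24, chr15:41517858-41518005, minus strand: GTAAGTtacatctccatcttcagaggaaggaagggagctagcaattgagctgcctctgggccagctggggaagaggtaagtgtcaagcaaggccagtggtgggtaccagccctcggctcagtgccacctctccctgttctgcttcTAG
PRPF31-207, intron 10 of 13, chr19:54128201-54128304, plus strand: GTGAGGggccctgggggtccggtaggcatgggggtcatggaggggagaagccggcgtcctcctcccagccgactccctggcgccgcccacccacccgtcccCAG
HNRNPH1-227, intron 10 of 13, chr5:179616959-179617050, minus strand: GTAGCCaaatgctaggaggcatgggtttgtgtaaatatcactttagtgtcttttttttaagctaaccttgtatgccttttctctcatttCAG
All 7 begin with GT and end with AG. They were 77 to 251 bases long, and their G and C content ran from 37.0% (HNRNPH1) to 75.0% (PRPF31). The last intron of HNRNPA2B1, kept in HNRNPA2B1-204 and not printed, had 29.5%. The members differ in kind as well as in intron: RPAP1-208, HNRNPL-206, PRPF31-207, HNRNPH1-227 and TRMT2A-211 run to an annotated coding 3′ end, whereas OAZ1-201 and PHYKPL-206 end elsewhere.

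Retained-intron transcripts took a similar part of their parent genes' reads at every ratio. They held 203735, 288123, 279288, 214753 and 226934 reads from 100:0 to 0:100. Pooled over parent genes this was 17.8%, 18.0%, 18.1%, 17.0% and 17.6% of the genes' reads (95% Wilson intervals at most 0.140 points wide, covering counting error only). The 25:75 library was lowest and the 50:50 library highest, and their intervals do not overlap, but the values did not run in order. The slope over the full series was -0.514 percentage points (two-sided exact permutation test over the 120 orders of the libraries, p = 0.45, where 0.0167 is the smallest possible).

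Counting each gene once gave much the same level. Among 1730 parent genes with at least 50 reads in every library, the median share was 18.4%, 18.4%, 18.2%, 18.2% and 17.6% (slope -0.646 points, exact permutation p = 0.0667). With every gene held at its mean weight, so that only shares within genes could move, the values were 17.6%, 17.7%, 17.6%, 16.7% and 17.1% (slope -0.840 points, exact permutation p = 0.183). As a share of all human reads, members made up 6.96%, 7.11%, 7.20%, 6.98% and 7.34% (slope 0.252 points, exact permutation p = 0.25), and with mitochondrial transcripts left out of the total the slope was 0.528 points (exact permutation p = 0.0833). The protein_coding share of the same genes was 71.7%, 71.7%, 71.8%, 73.2% and 72.5% (slope 1.26 points, exact permutation p = 0.167). Other transcript types held 10.5%, 10.3%, 10.2%, 9.76% and 9.87% (slope -0.745 points, exact permutation p = 0.0333). That was the only p under 0.05 before adjustment, and after adjustment over the 6 share measures the smallest p was 0.2. With 0.0167 the smallest exact p possible, no single measure could have passed 0.05 after this adjustment.

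**Figure D1:**
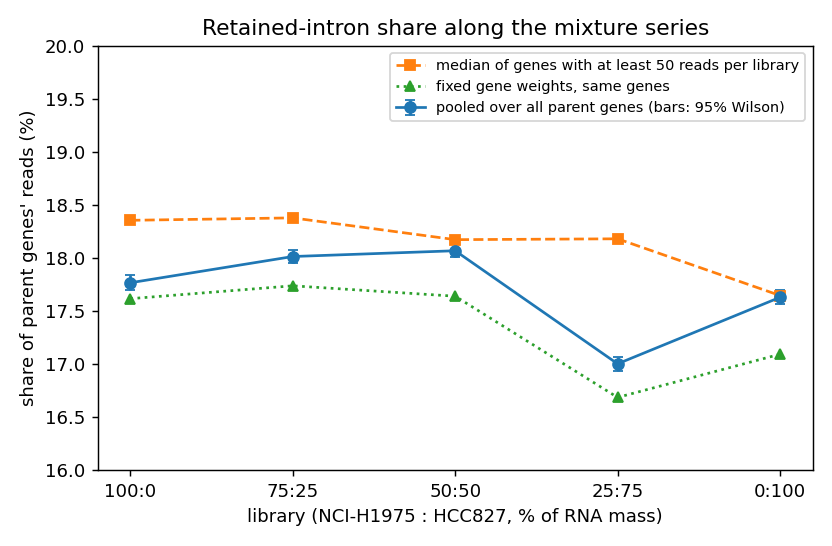
Share of parent-gene reads (%, vertical axis from 16 to 20) held by retained-intron transcripts in each library (horizontal axis, NCI-H1975 : HCC827 ratio), pooled with 95% Wilson bars, as the median of 1730 genes, and at fixed gene weights. All 3 measures stay between 16.7% and 18.4%, and the pooled and fixed-weight values are lowest at 25:75.

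Between genes the share varied far more than between libraries. In the 100:0 library the gene at the 10th percentile gave 4.24% of its reads to retained-intron transcripts and the gene at the 90th gave 47.1%, and in the 0:100 library these were 3.48% and 47.2%. In 76 genes the share was over 50% in every library, and in 150 it was under 5% in every library. A gene's share spanned 5.49 points over the 5 libraries in the median. From 100:0 to 0:100, 774 genes were higher and 950 lower, with 32 higher by 10 points or more and 46 lower by 10 points or more. Most parent genes, 1609, had a single member, 417 had 2 and 201 had 3 or more, with 8 at most.

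Reads were concentrated. The median member had 111 reads over the series, against 206 for the protein_coding set, and 100 members held 45.9% of all member reads. At the edge of the depth rule, 172 members had exactly 10 reads in their second highest library, with a median of 41 reads in all. Another 198 retained_intron transcripts had 9 there, with a median of 37, and were left out.

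The most abundant members came mainly from genes of the translation machinery. RPL37A-201 (chr2:216498867-216501467, a large-subunit ribosomal protein gene) had 2369, 4422, 5274, 4565 and 5754 reads, which was 32.2%, 32.8%, 32.9%, 28.9% and 32.0% of its gene. Its level rose (log2 slope 1.49 ± 0.12 SE, edgeR adjusted p = 8.92e-08), as did the summed coding reads of RPL37A (1.72), while its share stayed between 28.9% and 32.9%. RPS28-201 (25.1%, 25.6%, 25.6%, 22.4% and 24.4%), RPS23-203 (24.9%, 25.0%, 25.0%, 23.4% and 24.2%) and RPLP1-204 (20.6%, 19.99%, 21.0%, 19.7% and 20.5%), all of ribosomal protein genes, also rose in level while their shares varied by a few points. With library totals the rise was not called for RPS23-203 (log2 slope 0.071) and RPLP1-204 (0.048), and for RPS23-203 also not without 100:0 or without 0:100. RPS12-202 took 38.2%, 40.95%, 39.4%, 36.4% and 37.3% of its gene. EEF1A1-209, of the elongation factor that brings aminoacyl-tRNA to the ribosome, took 13.2%, 13.4%, 13.9%, 12.1% and 12.02%, and its rise in level was not called without 100:0 (log2 slope 0.32) or with library totals (0.22). In 6 of these 8 genes the share was lowest at 25:75, as it was in the pooled value.

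The other members of that group of 8 were of different genes. KRT7-208, of a simple-epithelium keratin, had 1971, 3140, 3460, 3337 and 3406 reads, 27.7% to 26.4% of its gene between the pure lines, and rose (log2 slope 1.12 ± 0.12 SE, edgeR adjusted p = 1.70e-06). NBEAL1-204 had 2229, 3891, 4518, 3897 and 4608 reads and made up 99.0% to 99.7% of the reads of NBEAL1, whose coding models were nearly unread. A transcribed pseudogene of the ribosomal protein RPL12 lies on the same strand at that locus, so the gene these reads came from is uncertain. Ribosomal protein genes and EEF1A1 have many near-identical copies in the genome, and reads of such copies could be divided between them.

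The level of a retained-intron transcript followed its gene. In the edgeR quasi-likelihood test of the log2 slope on HCC827 fraction, 956 of 3142 members passed an adjusted p of 0.05 (30.4%, against 33.6% of all transcripts tested). Of these, 580 rose (18.5%, background 17.5%) and 376 fell (11.97%, background 16.1%), and the others did not pass. With library totals in place of TMM scaling the split was 329 and 679, and that scaling moved the median slope of all transcripts from -0.03 to -0.40. Among protein_coding transcripts of the same genes 2126 of 5632 passed (37.7%), 1232 rising and 894 falling. The sets differ in depth: members under 100 reads passed in 17.0% and coding transcripts under 100 reads in 19.1%, whereas above 1000 reads these were 75.4% and 64.9%.

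Members and the summed coding reads of their genes had similar slopes, and 39.7% of all such sums by gene and type passed the test. Across 3024 members with both values, Pearson's r was 0.83 and Spearman's rank correlation 0.82, given as a description across transcripts that share libraries and, within a gene, may share reads. Of 556 rising members with a tested coding sum, the coding reads rose in 502, fell in 3 and did not pass in 51. Of 365 falling members, the coding reads fell in 286, rose in 3 and did not pass in 76. The median absolute difference between the slopes was 0.32.

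The 6 members that went against their genes' coding reads, named because of that result, had 43 to 321 reads over the series. Those that rose were PAPOLA-216, PFKP-201 and PCSK5-202. PFKP encodes platelet-type phosphofructokinase, and PFKP-201 had 9, 7, 12, 15 and 16 reads (log2 slope 1.61 ± 0.59 SE, edgeR adjusted p = 0.0398) against a coding slope of -0.77. PCSK5-202, of a proprotein convertase, had 8, 21, 30, 22 and 22 reads (log2 slope 1.38 ± 0.46 SE, edgeR adjusted p = 0.0266) against a coding slope of -3.31. Those that fell were HNRNPL-206, ATP5F1A-204 and EEF2-204. ATP5F1A-204, of the α subunit of mitochondrial ATP synthase, had 36, 29, 20, 12 and 14 reads (log2 slope -1.29 ± 0.44 SE, edgeR adjusted p = 0.0273) against a coding slope of 0.59. EEF2-204, of the translocation factor of the ribosome, had 82, 96, 59, 36 and 48 reads and a log2 slope of -0.78 ± 0.29 SE (edgeR adjusted p = 0.0437). The coding slope of EEF2, 0.29, is smaller than the shift that library totals gave to all transcripts. With a library left out, the slope call held in 1 of 5 fits for PFKP-201 and EEF2-204, in 3 for PCSK5-202, ATP5F1A-204 and PAPOLA-216 and in 4 for HNRNPL-206. The DESeq2 test called only PAPOLA-216 and HNRNPL-206 of the 6. Those 2 also passed the usage test below, and the other 4 did not.

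**Figure D2:**
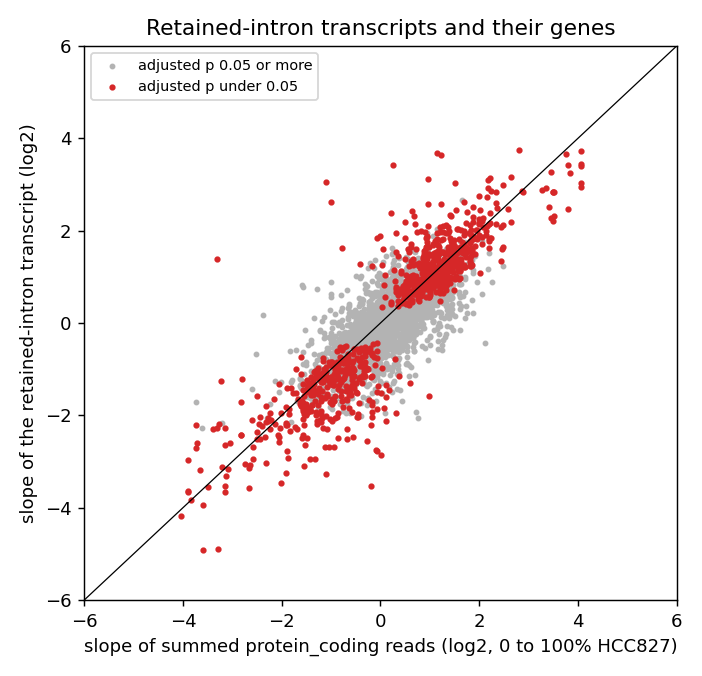
Log2 slope of each retained-intron transcript (vertical axis) against the log2 slope of the summed protein_coding reads of its gene (horizontal axis), with members past adjusted p 0.05 in red and the line of equality in black. Most of the 3024 points lie along the line, and few called members lie far from it.

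Usage, here the log2 slope of a transcript against that of its whole gene, itself included, passed the test for very few members. A member that makes up most of its gene also moves the gene's slope, so its usage value is smaller than its change in share. SLC2A11-216, described below, had a usage value of 1.27 against a level slope of 3.06. In the edgeR diffSpliceDGE test along the series, 8 of 3075 members passed (0.260%, against 0.156% of all transcripts tested). At an unadjusted p under 0.05 there were 167 members (5.43%), against 3.55% of all transcripts and 3.68% of the coding set. Of the 8, RAC1-205, HNRNPL-206, RPL23A-209, PYGL-203 and OAZ1-201 fell in usage from NCI-H1975 to HCC827, and MZT2A-204, SQSTM1-206 and PAPOLA-216 rose. Only HNRNPL-206, PAPOLA-216 and OAZ1-201 keep a whole intron of a coding model, and the other 5 keep none. When the 100:0 library was left out none of the 8 passed (0 of 3075 by diffSpliceDGE, 147 at an unadjusted p under 0.05). Of the 8, 3 passed without 0:100, 4 without 75:25, 2 without 25:75 and 7 without 50:50. Over these 5 fits the call held in 4 for RAC1-205, in 3 for HNRNPL-206 and MZT2A-204, in 2 for RPL23A-209 and SQSTM1-206, in 1 for PAPOLA-216 and PYGL-203 and in 0 for OAZ1-201.

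RAC1-205 had the smallest p. RAC1 encodes a GTPase that drives actin assembly at the cell edge. The transcript (chr7:6401618-6402520) had 97, 73, 40, 16 and 15 reads, or 3.85%, 2.36%, 1.50%, 0.796% and 0.816% of RAC1 reads. Both HCC827-rich libraries lay below the others, and the intervals of 100:0 (3.17% to 4.68%) and 0:100 (0.495% to 1.34%) do not overlap. Its level fell by 2.74 ± 0.32 SE on the log2 scale (edgeR adjusted p = 3.06e-06), while the summed coding reads of RAC1 did not pass (slope -0.08, edgeR adjusted p = 0.581). The adjusted p for usage was 5.95e-05 (edgeR diffSpliceDGE). RAC1-202, a short coding model with the same 3′ end, had 128, 114, 70, 61 and 47 reads, whereas the main model RAC1-201 had 2286, 2890, 2543, 1929 and 1769.

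The genome just past the end of RAC1-205 is shown because oligo(dT) priming can start at runs of A inside an RNA as well as at a poly(A) tail. The next 20 bases hold 18 A, in capitals.
RAC1-205, chr7:6402521-6402540, plus strand: AAAAcAAAAAAAAAAAAcAA
Of all members, 96 (3.06%) had 12 or more A in those 20 bases, against 1.72% of coding transcripts of the same genes. RAC1-205 was the only usage call among these 96 members. Of the 94 tested for usage, 16.0% had an unadjusted diffSpliceDGE p under 0.05, against 5.43% of all members. Where the reads of RAC1-205 were primed was not tested.

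HNRNPL-206 and PYGL-203 also fell. HNRNPL encodes an RNA-binding protein that regulates splicing, and HNRNPL-206 (chr19:38836398-38842328), which keeps the intron printed above, had 49, 65, 28, 34 and 8 reads. These were 10.7%, 8.35%, 3.64%, 5.36% and 1.23% of HNRNPL (edgeR diffSpliceDGE adjusted p = 0.00204). The 50:50 and 25:75 values are out of order, with overlapping intervals of 2.53% to 5.21% and 3.86% to 7.40%. Its coding reads moved the other way, with the member falling by 1.58 ± 0.45 SE and the coding sum rising by 0.98 (log2 slopes, edgeR adjusted p = 0.0105 and 1.38e-04), though the fall was not called without 0:100 (slope -0.88). PYGL is the liver form of glycogen phosphorylase, and PYGL-203 (chr14:50923237-50944470) had 100, 117, 84, 48 and 30 reads. Its share ran in order, 13.7%, 12.8%, 10.9%, 8.53% and 5.77% (edgeR diffSpliceDGE adjusted p = 0.0318).

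RPL23A-209 and OAZ1-201 were minor models of abundant genes. RPL23A-209 (chr17:28719991-28721261, ribosomal protein of the large subunit) had 107, 195, 135, 69 and 110 reads, 2.65%, 2.95%, 1.88%, 1.05% and 1.60% of its gene, so the HCC827-rich libraries were lowest though not in order (edgeR diffSpliceDGE adjusted p = 0.00503). OAZ1 encodes ornithine decarboxylase antizyme, which limits polyamine synthesis. OAZ1-201 (chr19:2269520-2273221) keeps the 251-base intron shown above and had 25, 34, 16, 1 and 5 reads, 0.785%, 0.886%, 0.498%, 0.0445% and 0.211% of OAZ1 (edgeR diffSpliceDGE adjusted p = 0.0318). OAZ1-209, another small member, had 26, 39, 20, 5 and 9 reads, whereas the larger OAZ1-203 took 14.7%, 15.9%, 15.0%, 16.1% and 18.0% of the gene.

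The transcripts that rose in usage were rare in NCI-H1975. MZT2A-204 (chr2:131469809-131492387), of a γ-tubulin complex subunit with a near-identical paralog, MZT2B, had 9, 29, 25, 48 and 45 reads, 2.24%, 5.39%, 5.42%, 12.4% and 11.5% of MZT2A (edgeR diffSpliceDGE adjusted p = 0.00877). SQSTM1 encodes the autophagy receptor p62, and SQSTM1-206 (chr5:179823858-179833386) had 9, 39, 42, 38 and 50 reads, a share in order from 0.135% through 0.412%, 0.453% and 0.630% to 0.685% (edgeR diffSpliceDGE adjusted p = 0.0217). PAPOLA encodes the poly(A) polymerase of the nucleus, and PAPOLA-216 (chr14:96542182-96553532) had 1, 4, 16, 10 and 12 reads. Its share ran 0.159%, 0.541%, 2.52%, 2.92% and 4.38% (edgeR diffSpliceDGE adjusted p = 0.0304) while the coding reads of PAPOLA fell (log2 slope -1.005, edgeR adjusted p = 1.23e-04). SQSTM1 overlaps MGAT4B and MRNIP on the opposite strand, RPL23A overlaps TLCD1, OAZ1 overlaps JSRP1 and PYGL overlaps ABHD12B. Whether the counting used strand is not given in the sources used here, so reads of antisense partners cannot be told apart.

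**Figure D3:**
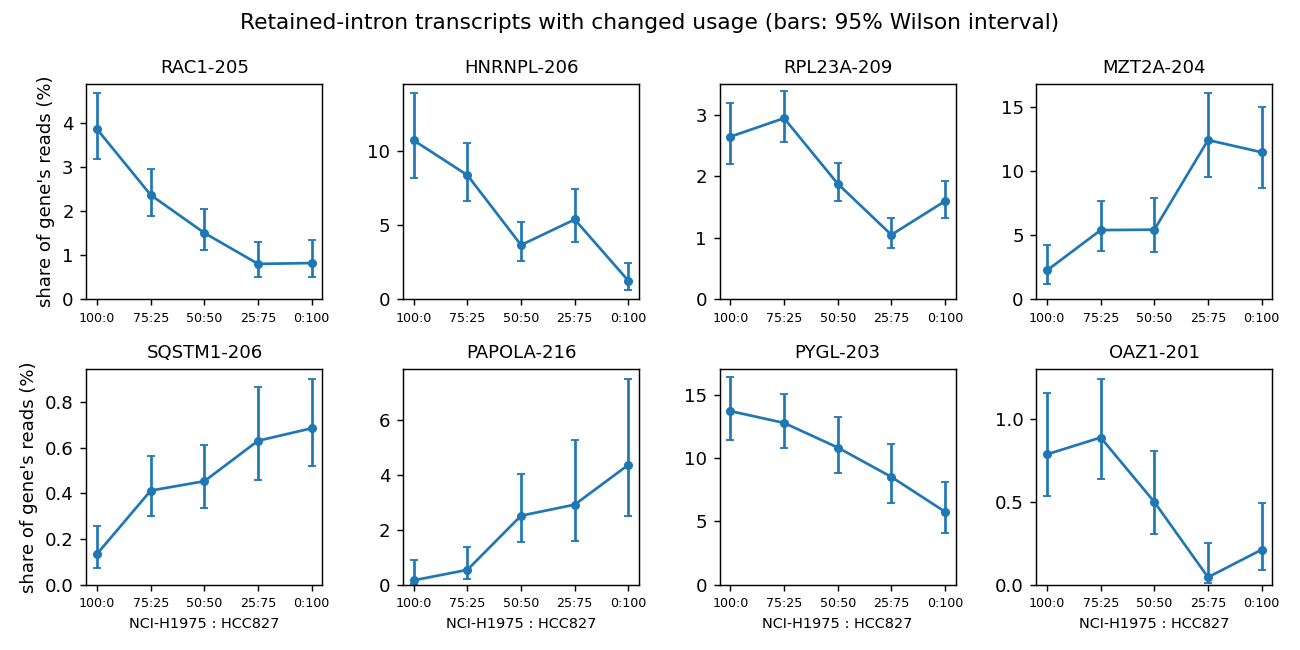
Share of the parent gene's reads (%, vertical axes from 0, different in each panel) by library (horizontal axes, NCI-H1975 : HCC827) for the 8 retained-intron transcripts with changed usage, with 95% Wilson bars. In 5 panels the values go down from 100:0 to 0:100, in RAC1-205 from 3.85% to 0.816%, whereas in MZT2A-204, SQSTM1-206 and PAPOLA-216 they go up.

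Summing all retained_intron reads of a gene removes the question of how reads were divided among its retained-intron models. Of 2389 such sums, 3 changed in usage (edgeR diffSpliceDGE), against 8 of all 9860 sums by gene and type tested (0.0811%). An unadjusted p under 0.05 was found for 92 of the 2389, with no background over all sums computed. The 3 called sums were RAC1 (adjusted p = 9.13e-04), MLXIP (0.00811) and MZT2A (0.0237), and the call held with a library left out in 4, 1 and 1 of 5 fits. MLXIP encodes a glucose-responsive partner of the transcription factor MLX. None of its transcripts is a member, but together its retained_intron models had 5, 11, 9, 14 and 25 reads, 1.14%, 2.23%, 2.34%, 5.47% and 10.0% of the gene.

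The shares of some members ran in strict order along the series. Among 2569 members in genes with at least 50 reads everywhere, 32 went up and 42 went down in order. No such count was made over all transcripts or the coding set, so whether this is few or many cannot be said. The 5 with the largest rise and the 5 with the largest fall are given here as a description, since none passed the usage test. SLC2A11-216 (chr22:23880409-23883307, of a sugar transporter gene) had 13, 86, 125, 144 and 189 reads, and its share went from 15.5% through 49.1%, 68.7% and 83.2% to 84.0%. Its level rose (log2 slope 3.06 ± 0.32 SE, edgeR adjusted p = 1.09e-06; diffSpliceDGE adjusted p = 0.0836). A readthrough gene with 3441 reads overlaps SLC2A11 on the same strand, so its reads may belong to either gene.

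The other large rises were smaller. TASOR-203, of a chromatin-silencing complex, went from 20.4% through 30.0%, 33.1% and 34.9% to 48.2%, on 28, 57, 40, 37 and 27 reads. This model holds no whole coding intron, and only 6 of its 5099 bases lie outside coding exons. TRMT2A-211, of a tRNA methyltransferase, went from 10.5% to 26.8% on 10, 21, 26, 21 and 22 reads, and PLEKHH3-206 from 14.9% to 30.0%. On the opposite strand, TRMT2A overlaps RANBP1, with 1859 reads, and DGCR8, with 142, and TASOR overlaps CCDC66, with 131. LMNA-216 was the best read of them, with 664, 829, 766, 625 and 681 reads. It took 25.0%, 27.2%, 29.1%, 34.0% and 36.1% of LMNA, the nuclear lamina gene, whose coding reads fell (log2 slope -0.66, edgeR adjusted p = 6.72e-04).

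Among the shares that went down, ZNF528-AS1-201, of an antisense noncoding gene, went from 38.8% to 15.6% with 81, 76, 66, 26 and 10 reads. PHYKPL-206, of a lyase of hydroxylysine breakdown, made up most of its gene throughout, at 86.3%, 84.5%, 72.4%, 70.1% and 66.9%. MARCHF9-203 went from 24.3% to 9.25%, and MSL1-201, of a histone acetylation complex, from 20.3% to 5.32%. RPAP1-208, of a factor bound to RNA polymerase II, went from 40.6% to 27.6% on 20 to 42 reads per library. MARCHF9 overlaps CDK4, with 10958 reads, and PHYKPL overlaps HNRNPAB, with 2261 reads, both on the opposite strand.

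Genes of splicing kinases, of known detained introns and of SR proteins are known for intron retention, and 1 of 12 members of the kinase and detained-intron list and 0 of 15 of the SR protein list passed the edgeR test, against 30.4% of all members. Of 15 genes of splicing kinases and known detained introns, 7 had 12 members, of which none rose and 1 fell: SON-215, with 18, 28, 16, 9 and 3 reads (log2 slope -1.78 ± 0.58 SE, edgeR adjusted p = 0.0223). SON-215 was not called with the DESeq2 test, without 0:100 (slope -1.14) or without 75:25. The pooled share in this list was 14.6%, 15.5%, 14.7%, 14.6% and 15.2%. Of the SR protein genes 7 had 15 members, and none passed in either direction, with a pooled share of 21.7%, 19.6%, 20.4%, 20.8% and 19.5%. With library totals 2 members of each list fell, where 27.9% of all transcripts fell. The DESeq2 test called none in either list.

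Genes of hnRNP proteins, which bind pre-mRNA and influence splice choice, had 27 members in 9 of the 16 genes. Of these 1 rose and 10 fell (40.7% called, against 33.6% of all transcripts), where 17.5% of all transcripts rose and 16.1% fell. The median slope of the 27 was -0.46 against 0.07 for all members. HNRNPH1 held 4 of the fallers and HNRNPA2B1 held 3. The coding sums fell in those 2 genes, rose in HNRNPL and HNRNPC, and did not pass in the other 5. The fallers included HNRNPA2B1-204 with 406, 438, 388, 248 and 188 reads (log2 slope -0.76 ± 0.16 SE, edgeR adjusted p = 0.00110). Another was HNRNPH1-227, which holds 11 coding introns and had 73, 70, 68, 35 and 22 reads (log2 slope -1.23 ± 0.30 SE, edgeR adjusted p = 0.00360). HNRNPH1-227 was not called without 0:100. Their genes' coding reads fell as well, and the share of HNRNPA2B1-204 stayed between 17.0% and 18.0%. The fallers were 3 (11.1%, against 8.17% of all transcripts) with the DESeq2 test and 14 (51.9%, against 27.9%) with library totals. They were 4 (14.8%, against 10.5%) without 100:0 and 3 (11.1%, against 8.32%) without 0:100. HNRNPA2B1 overlaps CBX3, with 6955 reads, on the opposite strand.

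Spliceosome components gave 13 members in 7 of 19 genes, 2 rising and 1 falling (23.1% called, against 33.6% of all transcripts). SF3B3-206, of a U2 snRNP subunit, had 96, 172, 182, 196 and 207 reads (log2 slope 1.40 ± 0.18 SE, edgeR adjusted p = 1.02e-05). EFTUD2-205, of the GTPase of the U5 snRNP, had 69, 144, 134, 102 and 111 reads (log2 slope 0.73 ± 0.23 SE, edgeR adjusted p = 0.0169). That call was lost with library totals (slope 0.36), with the DESeq2 test, without 0:100 and without 100:0 (slope 0.33). PRPF31-207, which holds the intron shown above and another of 86 bases, had 49, 41, 27, 9 and 8 reads (log2 slope -2.49 ± 0.40 SE, edgeR adjusted p = 1.00e-04). The coding reads of PRPF31, a U4/U6 snRNP protein, fell by 1.49. The pooled share of this list was 13.6%, 15.4%, 15.6%, 16.7% and 18.6%, in order, whereas the median share over its genes was 24.1%, 21.8%, 23.1%, 19.1% and 26.8%, not in order.

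Cytosolic ribosomal protein genes supplied 128 members in 59 genes and 31.9% of all member reads. Of these, 70 rose and 4 fell (57.8% called, against 33.6% of all transcripts), with a median slope of 0.68. With library totals 46 rose and 12 fell, where 10.3% of all transcripts rose and 27.9% fell. The coding sums rose in 52 of the 59 genes and fell in 2, and the pooled share was 18.4%, 19.0%, 18.9%, 16.8% and 18.0%. RPL8-204 had 622, 1162, 1289, 1354 and 1515 reads, 14.0% to 15.0% of its gene between the pure lines (log2 slope 1.56 ± 0.14 SE, edgeR adjusted p = 2.12e-07). RPL13-207 had 592, 953, 1089, 1114 and 1232 reads and stayed between 7.26% and 7.69% (log2 slope 1.39 ± 0.14 SE, edgeR adjusted p = 6.03e-07).

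Glycolysis enzyme genes had 23 members in 10 genes, 14 rising and 1 falling, where 17.5% of all transcripts rose and 16.1% fell. With library totals, in which 10.3% of all transcripts rose and 27.9% fell, 8 members rose and 2 fell. With the DESeq2 test, in which 10.9% of all transcripts rose and 8.17% fell, these were 6 and 1. Without 0:100, where 11.6% of all transcripts rose and 8.32% fell, 5 members rose and 0 fell. ENO1-203, of enolase, had 1316, 2118, 2173, 1990 and 2136 reads (log2 slope 0.97 ± 0.12 SE, edgeR adjusted p = 8.30e-06), a share of 28.9%, 29.3%, 29.0%, 30.1% and 29.7%. LDHB-206 and LDHB-209, of lactate dehydrogenase B, rose by 1.26 ± 0.16 SE and 1.28 ± 0.15 SE (log2 slopes, edgeR adjusted p = 8.10e-06 and 3.54e-06). The list's pooled share went from 15.6% through 13.9%, 13.1% and 12.1% to 11.4%, while its median gene stayed between 19.8% and 21.4%.

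Of the aminoacyl-tRNA synthetase genes, which charge tRNAs, 9 had 20 members, 1 rising and 2 falling (15.0% called, against 33.6% of all transcripts). With library totals 0 rose and 5 fell (25.0%, where 27.9% of all transcripts fell). GARS1-208 and GARS1-209, of the glycine enzyme, fell by 0.95 ± 0.19 SE and 0.53 ± 0.15 SE (log2 slopes, edgeR adjusted p = 5.77e-04 and 0.0127), the second not without 100:0 or without 0:100. Their lengths listed with the counts, 761 and 772 bases, are far below the 5212 and 4189 bases of the GENCODE v44 models. YARS1-203, of the tyrosine enzyme, rose by 0.75 ± 0.16 SE (log2 slope, edgeR adjusted p = 0.00161) and took 48.3%, 48.7%, 51.6%, 49.0% and 47.9% of its gene. The rise was not called with library totals (slope 0.38) or without 100:0 (slope 0.54). Outside all the lists, 492 members rose and 356 fell of 2903 (29.2% called, against 33.6% of all transcripts).

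By structure, 1605 members (51.1%) held at least 1 whole coding intron of 50 bases or more, and 1443 reached outside the coding exons without holding one. Another 20 lay inside coding exons and 74 belonged to genes with no coding model. Members that held a whole coding intron had 57.3% of member reads. In neither main kind did the pooled share of their genes run in order. Those holding an intron had 15.1%, 15.2%, 15.1%, 14.0% and 14.4% (slope -1.05 points, exact permutation p = 0.167). Those reaching outside without one had 13.7%, 14.0%, 14.1%, 13.6% and 14.2% (slope 0.209 points, exact permutation p = 0.533). Of 10 structural groups compared, 2 had a pooled share that ran in order. The 144 single-exon members had 12.7%, 12.3%, 11.6%, 9.78% and 9.53% (slope -3.58 points, exact permutation p = 0.0167, adjusted p = 0.0833). The 20 members inside coding exons had 12.8%, 13.7%, 14.5%, 14.8% and 16.5% (slope 3.44 points, exact permutation p = 0.0167, adjusted p = 0.0833). Both exact p-values are the smallest possible with 5 libraries, so 2 groups alone could not have passed after adjustment over 10. The pooled share of a group also moves with the expression of its genes. MT2A-203 of a metallothionein gene, the single-exon member with most reads, took 24.6%, 25.3%, 24.4%, 21.3% and 22.4%. Of the next most read, B2M-210 went from 33.0% at 100:0 to 31.0% at 0:100, RPLP0-220 from 11.4% to 10.5% and COX6A1-202 from 40.6% to 31.7%. OAZ1-203 instead rose from 14.7% to 18.0%.

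Members that ended away from a coding 3′ end had low usage p-values more often than the others. A coding 3′ end lay within 50 bases for 2148 members, which held 78.5% of member reads, and 920 ended elsewhere in the gene. Those ending elsewhere were shorter (median 1674 against 2339 bases) and less read (median 84 against 129 reads). Of them 10.3% had an unadjusted usage p under 0.05, against 3.36% of members at a coding end, and they supplied 6 of the 8 usage calls. The next 20 bases held 12 or more A, not necessarily in a row, past 6.96% of them, against 1.40% at coding ends. The pooled share did not run in order in either kind, at 9.21%, 9.47%, 9.45%, 8.68% and 9.41% for ends elsewhere and 18.4%, 18.5%, 18.4%, 17.3% and 17.7% for coding ends.

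The introns that members held differed from the other introns of the same genes. Among introns of canonical coding transcripts, 2217 were held in a member and 25593 were not. Held introns had a median length of 327 bases (quartiles 142 and 730) and the others 1096 (319 and 2886), and 47.7% against 24.1% were 300 bases or shorter. Median G and C content was 55.1% for held introns and 45.7% for others. Within the 1119 genes that had both kinds, held introns were shorter in 69.8% and richer in G and C in 55.2%. These are properties of the annotated models, with no test.

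Position and splice sites also differed in part. The last intron was held in 11.6% of 2166 genes, an internal intron in 7.73% of 23471 cases and the first in 6.84% of 2164. Of held introns 99.1% began with GT and ended with AG, against 99.0% of others. The 5′ splice site began with GTAA in 25.3% of held introns and in 35.6% of others. A start of ATATCC or GTATCC, typical of introns removed by the minor spliceosome and searched for, like GTAA, only at the first bases of the intron on the gene's strand, was present in 25 held introns (1.13%) and in 118 others (0.461%).

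**Figure D4:**
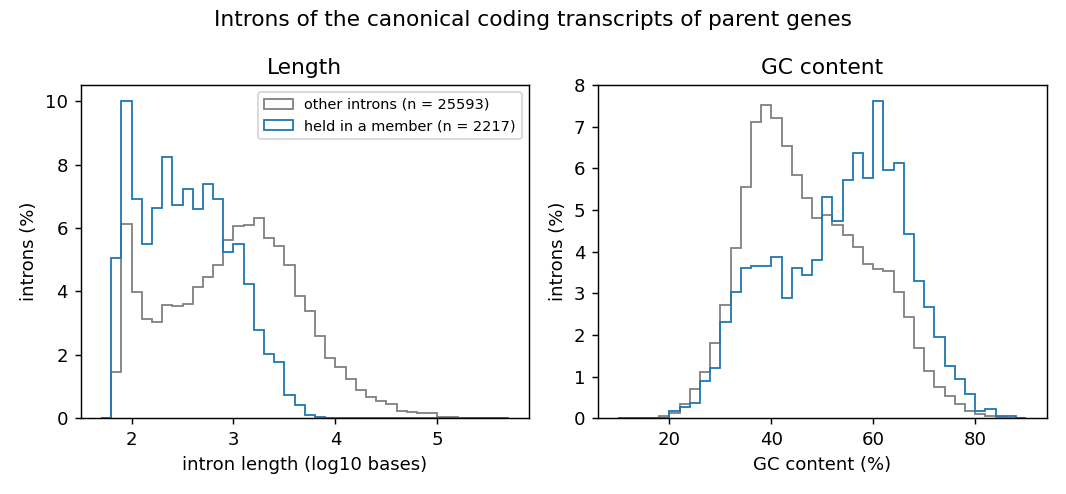
Introns of the canonical coding transcripts of parent genes, with length (left, log10 bases) and G and C content (right, %) against the percentage of introns in each class. The 2217 introns held in a member (blue) lie to the left in length, with a median of 327 bases against 1096, and to the right in G and C content.

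Many members had almost the same number of reads as a coding model with the same end. A coding model ending within 50 bases and sharing its last exonic stretch was found for 1989 members, which had a median of 0.708 reads per read of that model. In 671 (33.7%) the counts were within 1.25-fold of each other. With up to 200 shared bases this was so for 9.84%, with 201 to 500 for 18.9%, with 501 to 1000 for 38.1%, with 1001 to 2000 for 41.4% and with over 2000 for 41.6%. How reads that match several models were divided is not given in the sources used here, so the level of such a member and of its coding model cannot be separated.

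OS9 and B2M, chosen after their values were seen, show how close the counts can be. OS9-210 (chr12:57695496-57721557, of a lectin of endoplasmic reticulum quality control) had 199, 1005, 1495, 1754 and 2063 reads. The coding models OS9-202 and OS9-203 had 177, 1038, 1582, 1721 and 2084 and 171, 950, 1470, 1711 and 1992. OS9-210 and OS9-202 share 1052 bases at the 3′ end, and OS9-210 rose with its gene (log2 slope 3.27 ± 0.32 SE, edgeR adjusted p = 6.32e-07). B2M-210, a single-exon model of the light chain of class I antigen-presenting molecules, had 1598, 1906, 1688, 1068 and 800 reads, against 1761, 2270, 1913, 1190 and 986 for the coding B2M-211. In ENO1, ENO1-203 had 9733 reads in all, and the coding ENO1-201 and ENO1-216 had 11510 and 9688. In contrast RPL37A-201 had 22.1 times the reads of the coding model that shares most of its 3′ end, RPL37A-206, and PRPF31-207 had 0.0745 times those of PRPF31-203.

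**Figure D5:**
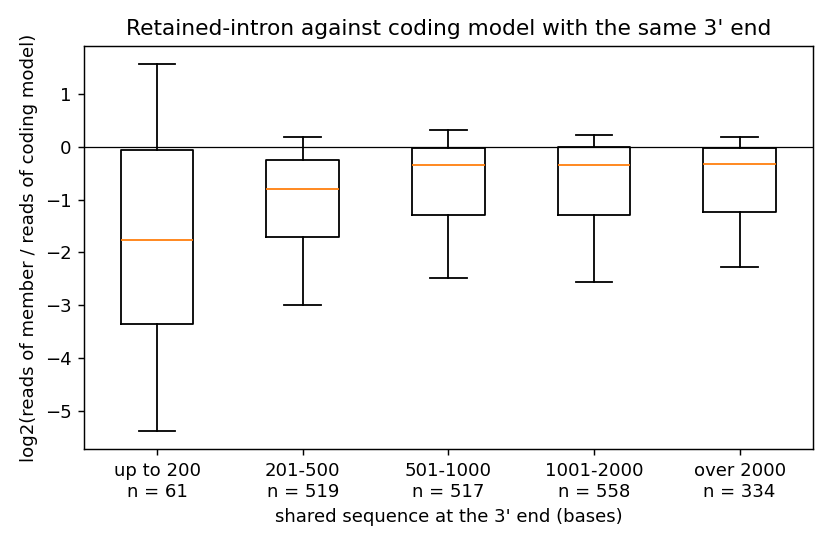
Log2 ratio of reads over the 5 libraries between a retained-intron transcript and the coding model with the same 3′ end (vertical axis) by the length of sequence they share at that end (horizontal axis). Boxes give quartiles and medians and whiskers the 10th and 90th percentiles. The median ratio goes from 0.295 in the 61 members with the shortest shared stretch to 0.797 in the 334 with the longest.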

How the data were processed

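Each library's table gave a transcript identifier, a length and an estimated count of reads per transcript, deposited by the authors with no scaling; minimap2 2.24, Salmon 1.9.0 and GRCh38 are named per the submitters' processing notes, with no roles. The annotation release behind the tables and the rule for reads matching several models are not given in the sources used here. For some members the length listed with the counts differs from that of the GENCODE v44 model. GARS1-208 had 761 bases against 5212, GARS1-209 772 against 4189, EEF1A1-209 633 against 2109 and LMNA-216 1348 against 1031. Held introns, 3′ ends and shared 3′ stretches are those of the v44 models. For such members they may not describe what was counted. Of 227751 human identifiers, 224076 matched GENCODE v44 (98.6% of human reads); 161 identifiers listed more than once were summed, and values were rounded to whole reads. Totals ran from 2932250 to 4058751 reads, without molecular identifiers, so PCR copies counted as reads.

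All 31758 human transcripts with at least 10 reads in at least 2 libraries were fitted with edgeR 4.0.16 (R 4.3.3; TMM, quasi-likelihood slope on HCC827 mass fraction, Benjamini-Hochberg adjustment, threshold 0.05). Usage was tested with edgeR's diffSpliceDGE, for transcripts and for reads summed by gene and transcript type. Shares were tested by exact permutation over the orders of the 5 libraries. Alternatives were DESeq2 1.42.0, other scalings and filters, and each library left out. The scripts were tested on simulated data.

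Members, lists and tests were chosen with earlier results of these data known. Named were the 8 members with most reads, the 8 with the smallest adjusted usage p, the 5 largest rises and 5 largest falls of shares in order among genes with at least 50 reads in every library, and up to 3 called members per list. One of the lists is not reported here. Sequins entered no test.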

Additional observations from a re-analysis of the deposited data

How the results depend on the processing

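No paired analysis was possible because each ratio has 1 library and no replicate numbers. The count of 956 members with a slope was 506 with the DESeq2 Wald test and 514 to 923 with a library left out (514 without 0:100, 591 without 100:0). The coding count of 2126 was 1316 with the DESeq2 Wald test and 1342 to 2012 with a library left out. The 8 usage calls were 4 with 10 reads required in every library, 18 by the gene-level Simes test, which counts genes, and 0 to 7 with a library left out. The 3 usage calls of summed reads were 1 with 10 reads in every library and 0 to 3 with a library left out. The cause was not tested, except that fits without a library have fewer samples. The slopes of the share measures listed below kept their sign under every alternative run, and with 5 libraries none of them passed. The share of other transcript types, with an unadjusted exact permutation p of 0.0333, is not among them. With a library left out the smallest possible p is 0.0833, so those fits could not pass, and the slopes ran from -0.895 to -0.191 points (pooled), -0.875 to -0.291 (median), -1.16 to -0.578 (fixed weights), 0.0648 to 0.365 (of all human reads) and 0.836 to 1.87 (coding). Without ribosomal protein genes, an alternative chosen after seeing the data, the pooled slope was -0.308. Named values that changed sign were not called: the slopes of RPL23A-209 (-0.62 to 0.13 with a library left out), TASOR-203 (-0.40 to 0.49 with a library left out, -0.26 with library totals), LMNA-216 (-0.054 with library totals) and PHYKPL-206 (-0.13 to 0.46 with a library left out, -0.14 with library totals), and the usage of ZNF528-AS1-201 (0.21 against retained_intron and protein_coding transcripts only). Of the other named slopes under an alternative, 354 kept their side of the threshold, 29 no longer passed and 1 newly passed. For the other named usage values, 93 kept their side of the threshold and 24 no longer passed. Low reads limit these values: the median member had 111 reads over 5 libraries.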
